A study of Danio rerio with 6 samples.

Results

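Skin cells that carried the macrophage reporter mpeg1-GFP were compared between those marked by DsRed and those left unmarked, in control zebrafish. Members of the comparison were all genes with at least 1 CPM (reads of the gene per 1000000 gene-assigned reads of a library) in at least 2 of the 4 control libraries, and 19587 of the 32520 listed genes met this rule. Both groups came from untreated adults aged 3 months, wild type for the csf1r genes, that carried the same transgenes. These were mpeg1-EGFP, kdrl:Cre and a beta actin reporter (act2b in the sample labels, actb2 in the study). Cre removes the stop cassette of this reporter to switch on DsRed. Control GFP+DsRed+ cells (replicates 1 and 3) and control GFP+DsRed- cells (replicates 1 and 2) were sorted from skin and profiled by bulk RNA sequencing with 2 libraries each. One more group, GFP+DsRed- cells of the same age and transgenes from fish mutant for both csf1ra and csf1rb (csf1rDM, replicates 2 and 3), entered the model that estimates the spread, and its levels are given beside those of the control libraries where they bear on a gene.

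Blood stem cells arise from endothelium that expresses kdrl, so that Cre driven by this promoter leaves a permanent DsRed mark on blood cells and on their macrophage progeny. The mark is also expected in endothelium itself, and macrophages that arise from mesoderm without kdrl expression would stay unmarked, so the absence of DsRed does not by itself give an origin. Skin macrophages engulf dying cells and microbes, degrade them in acid lysosomes and present peptides on MHC class II. Metaphocytes are the other mpeg1+ skin population of zebrafish. They are epithelial-like cells of ectodermal origin that take up and hand on antigen and express far fewer phagocytosis genes. The absence of DsRed in the unmarked libraries was taken from the study's description of the sort, because the sample labels name only GFP for them.

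The 4 control libraries held between 10069880 and 14816059 gene-assigned reads. The correlation of log2(CPM + 1) over genes (Pearson's r) was 0.978 between the GFP+DsRed- replicates, 0.978 between the GFP+DsRed+ replicates and 0.828 to 0.881 between libraries of the different groups (genes are not independent replicates). Levels below are CPM of the library total. Log2 fold changes are GFP+DsRed+ minus GFP+DsRed- on the log2(CPM + 1) scale after a correction for composition (TMM). The pseudocount shrinks the fold changes of genes with low counts. This correction moved the median change of all genes tested from -0.21 to -0.03, and changes are relative to that centre. In bulk samples such as these, fewer cells of a type and less RNA per cell cannot be told apart.

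Marked cells were richer in macrophage transcripts, and unmarked cells in genes of metaphocytes, epithelium and pigment cells. An adjusted p below 0.05 (limma, Benjamini-Hochberg over all 20382 genes tested) was reached by 2982 members that were higher and 2197 that were lower in GFP+DsRed+ cells, against shares of 14.6% and 10.8% of all genes tested. Without the TMM correction the order turned, with 2371 higher and 3259 lower genes. A log2 fold change beyond 2 in addition, which is what "called" means from here on, was reached by 1015 higher and 212 lower members (4.98% and 1.04% of all genes tested). The called higher genes took up 2.02% and 1.5% of the reads of the GFP+DsRed- libraries and 12.6% and 14.2% of those of the GFP+DsRed+ libraries. The called lower genes took up 1.17% and 0.91% in GFP+DsRed- and 0.12% and 0.08% in GFP+DsRed+ libraries. The groups did not overlap in any called gene, which the thresholds nearly fix, since on CPM of the library total 24.8% of all members lay wholly higher and 47.9% wholly lower in the marked libraries. The libraries of a group are described as biological replicates, and p-values measure only the spread between these libraries. Counts at the adjusted p alone moved more than counts of called genes when each control library was left out in turn. Such a fit leaves 1 library in a group, and some genes then miss the filter. Fewer genes can pass for these reasons alone. Where a named gene lost the test without a library, the libraries concerned (written DsRed- 1, DsRed- 2, DsRed+ 1 and DsRed+ 3 by group and replicate) are given with the adjusted p without them. List counts that moved by more than 1.5 times in this way are given for many lists but not for all. A list count without such values may therefore also have moved. In such list counts, a gene that missed the filter without a library was taken as not passing. Such a gene is not named as having lost the test. Most members moved little: the interquartile range of their log2 fold changes ran from -0.55 to 0.44.

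**Figure D1:**
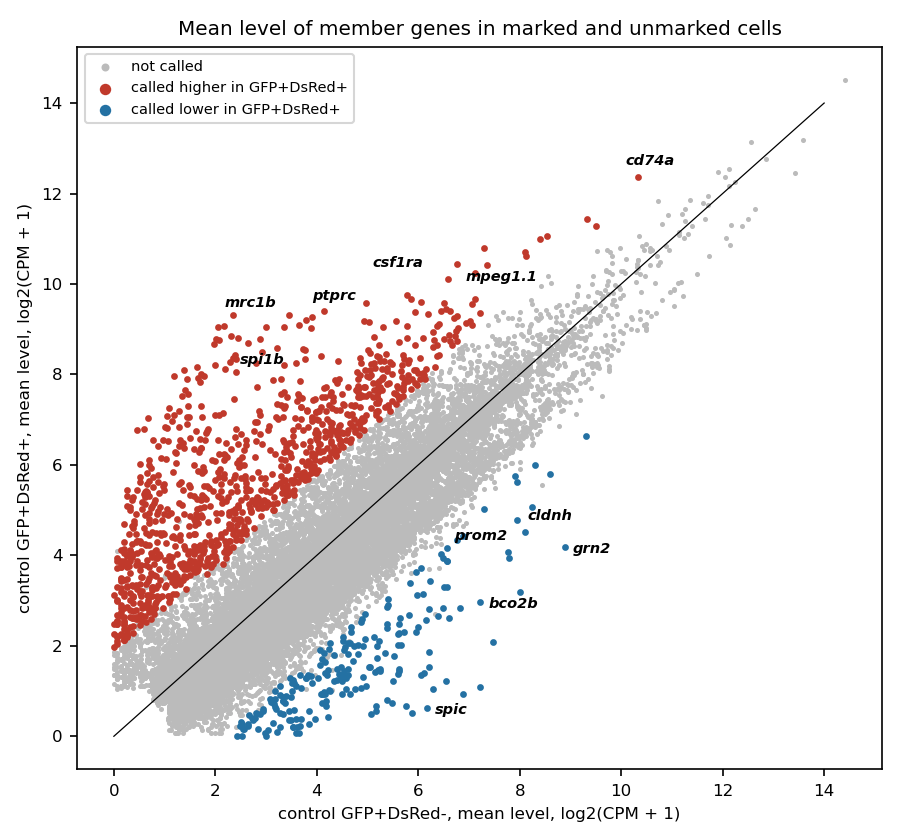
Mean level of each of the 19587 member genes in control GFP+DsRed- (x axis) and control GFP+DsRed+ libraries (y axis), both as log2(CPM + 1) of the mean of 2 libraries. The 1015 called higher genes (red) reach farther from the diagonal than the 212 called lower genes (blue), and named genes are labelled.

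The filter on low values let some genes in through one group only. Of the members, 513 reached 1 CPM in both GFP+DsRed+ libraries and in neither GFP+DsRed- library, 214 of them called higher, and 794 did so the other way round, 65 of them called lower. Such genes had to lean to that side, and their number is no support for the comparison. Of the genes described below, c1qa, c3ar1, c5ar1, ccr12a, cd22, cd8b, csf1rb, cxcr1, mfap4 and tlr9 entered only through the marked libraries, and gata2a, gpr34b, mhc2dbb, mhc2dca, mhc2dcb, ptprjb.1 and spic only through the unmarked ones. The direction of these genes was favoured by the filter, and their values are to be read as a description of levels. Over the gene lists together, 37 of 385 higher genes and 9 of 223 lower genes had entered in this way. Just inside the rule, with the next-to-highest library between 1 and 1.2 CPM, lay 477 members, of which 1 was called higher. Just outside it, between 0.80 and 1 CPM, lay 293 genes, none of which was called.

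The genes with the largest increases included macrophage receptors, a connexin and a sugar transporter. The mannose receptor gene mrc1b, whose product binds sugars on microbes and glycoproteins, was at 5.75 and 2.4 CPM in GFP+DsRed- replicates 1 and 2 and at 690.5 and 579.7 CPM in GFP+DsRed+ replicates 1 and 3, the order kept below (log2 fold change 7.24 ± 0.33 SE, adjusted p = 8.55e-05). The scavenger receptor gene marco, for a receptor of bacteria and particles, was at 4.5 and 1.35 CPM against 464 and 347 CPM (6.99 ± 0.70, adjusted p = 0.000667). Levels of cx32.2, a connexin of gap junctions, were 4.95 and 1.1 CPM against 427 and 451 CPM (7.14 ± 0.48, adjusted p = 0.000138). In all 3 genes the unmarked mean was under 1% of the marked mean, and GFP+DsRed- replicate 1 was above replicate 2. The sugar transporter gene slc2a6 had 3.3 and 1.0 CPM against 204 and 278 CPM (6.53 ± 0.50, adjusted p = 0.000223). Of the scavenger and mannose receptor list, 8 of 15 members were higher and 2 lower, with a median log2 fold change of 1.46 against -0.03 over all genes tested. The lower members were mrc2 (-1.11), for an endocytic receptor of collagen, and lgals3b (-0.88), a galectin. Both genes are also expressed in epithelia and connective tissue. The test was no longer passed by mrc2 without DsRed- 1, DsRed- 2 or DsRed+ 3 (adjusted p 0.0824 to 0.162) and lgals3b without DsRed- 1, DsRed- 2 or DsRed+ 3 (0.0708 to 0.204).

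Transcription factors of the myeloid lineage that passed the test were mostly higher in marked cells, with a few lower. The PU.1 gene spi1b, the master regulator of macrophages, stood at 6.55 and 3.95 CPM in unmarked and 401 and 427 CPM in marked cells (log2 fold change 6.28 ± 0.23 SE, adjusted p = 8.55e-05). The interferon regulatory factor gene irf8, needed for macrophage formation in zebrafish, was at 7.74 and 4.7 CPM against 126 and 162 CPM (4.55 ± 0.42, adjusted p = 0.000462). For both genes, every marked library lay far above every unmarked one. The second PU.1 gene, spi1a, was expressed on both sides of the comparison, at 160.1 and 72.5 CPM against 318 and 333 CPM (1.8 ± 0.33, adjusted p = 0.00804). Unmarked cells thus held 35.7% of the marked level of spi1a but 1.27% of that of spi1b. The opposite direction was taken by spic, a relative of PU.1 known in mouse from red pulp macrophages, at 97.5 and 44.3 CPM in unmarked, 0.60 and 0.50 CPM in marked and 56.2 and 29.6 CPM in csf1rDM cells (-5.28 ± 0.41, adjusted p = 0.000239). It was also taken by gfi1b, a zinc finger repressor of erythroid and megakaryocyte cells, at 34.4 and 13.8 CPM, 1.4 and 0.45 CPM, and 38.2 and 14.7 CPM in the same order (-3.45 ± 0.56, adjusted p = 0.00504). In both genes unmarked replicate 1 held more than replicate 2, and both were still well above the marked libraries. Of the 40 members of this list, 20 were higher and 4 lower (median 0.92), against 14.6% and 10.8% of all genes tested. The lower count was thus near the share of all genes. A left-out control library moved these counts by more than 1.5 times: myeloid transcription factors lower (2 without DsRed- 2 or DsRed+ 3).

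Receptors for myeloid growth factors were higher in marked cells, while the ligands of the csf1 receptor were lower. The csf2rb gene, for the shared beta chain of receptors such as that of GM-CSF in mammals, was at 8.19 and 5.75 CPM against 443 and 622 CPM (log2 fold change 6.26 ± 0.37 SE, adjusted p = 9.93e-05), and csf3r, for the receptor of granulocyte colony stimulating factor, at 5.75 and 2.8 CPM against 353 and 296 CPM (6.19 ± 0.29, adjusted p = 8.55e-05). The dendritic cell growth factor receptor gene flt3 was at 1.25 and 1.75 CPM against 24.7 and 72.3 CPM (4.29 ± 0.48, adjusted p = 0.00102), with marked replicate 3 well above replicate 1. Unmarked cells kept 8.57% of the marked level of csf1ra and 1.4% of that of csf1rb, whose log2 fold changes were 3.75 and 4.85. The ligand genes csf3a (3.19) and csf3b (2.06) rose as well. The csf1 receptor ligand genes csf1a (-1.14), csf1b (-1.15) and il34 (-1.09) and the receptor gene kita of mast and pigment cells (-0.87) were lower. In all, 7 of 13 members were higher and 4 lower. The following counts changed by more than 1.5 times without a library: myeloid growth factor receptors and ligands lower (0 without any 1 of the 4). Among these genes, the test was lost for csf3b without DsRed- 2 or DsRed+ 3 (adjusted p 0.0838 to 0.0955), csf1a without any 1 of the 4 (0.0721 to 0.175), csf1b without any 1 of the 4 (0.0575 to 0.216), il34 without any 1 of the 4 (0.0815 to 0.153) and kita without any 1 of the 4 (0.0588 to 0.187).

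Complement genes included some of the largest changes. The C1q genes, whose products tag dying cells and start the classical pathway, stood at low levels in unmarked libraries. Levels of c1qa were 0.90 and 0.30 CPM against 124 and 138 CPM (log2 fold change 6.53 ± 0.31 SE, adjusted p = 8.55e-05), those of c1qb 1.95 and 0.60 CPM against 254 and 247 CPM (7.02 ± 0.41, adjusted p = 9.52e-05), and those of c1qc 2.3 and 1.1 CPM against 233 and 242 CPM (6.67 ± 0.29, adjusted p = 8.55e-05). The anaphylatoxin receptor genes behaved alike, c5ar1 with 0.40 and 0.60 CPM against 107 and 111 CPM (6.33 ± 0.32, adjusted p = 8.55e-05) and c3ar1 with 0.40 and 0.10 CPM against 28.1 and 34 CPM (4.8 ± 0.27, adjusted p = 9.09e-05). Properdin (cfp), which stabilizes the alternative pathway convertase, changed less (2.58). Lower in marked cells were the terminal component gene c7a (-1.23) and cfd (-0.90), which encodes factor D, while the other copy of the terminal component, c7b, was higher (1.8 and 0.90 CPM against 39 and 91 CPM, 4.88 ± 0.49, adjusted p = 0.000684). Of 18 members, 7 were higher and 3 lower. Without either DsRed+ library, c1qa, c3ar1 and c5ar1 missed the filter and so were not counted as higher. The lower count moved by more than 1.5 times when DsRed- 1, DsRed- 2 or DsRed+ 3 was left out. The adjusted p went above 0.05 for c7a without DsRed- 1, DsRed- 2 or DsRed+ 3 (adjusted p 0.0573 to 0.144) and cfd without DsRed- 2 or DsRed+ 3 (0.0907 to 0.107).

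Chemokines and their receptors, a large list, held the most called genes by count. Of 64 members, 31 were higher, 22 of them called (against 4.98% of all genes tested), and 9 were lower (median 0.94). Of all genes tested, 14.6% were higher and 10.8% lower. Some smaller lists had larger shares called higher, such as 8 of 15 MHC class II presentation genes and 7 of 13 myeloid growth factor receptor and ligand genes. The chemerin receptor gene cmklr1 had a log2 fold change of 7.23 ± 0.49. The chemokine receptor gene ccr12a was at 0.55 and 0.20 CPM in unmarked and 99.8 and 117 CPM in marked libraries (log2 fold change 6.45 ± 0.27 SE, adjusted p = 8.55e-05), and cxcr3.2, known in zebrafish for macrophage recruitment, at 2.95 and 1.55 CPM against 209.9 and 244 CPM (6.34 ± 0.26, adjusted p = 8.55e-05). Among ligands, cxcl19 was at 4.25 and 0.60 CPM against 213 and 287 CPM (6.6 ± 0.56, adjusted p = 0.000327) and ccl34a.4 at 1.35 and 0.90 CPM against 175 and 128 CPM (6.32 ± 0.28, adjusted p = 8.55e-05). The ligand gene ccl35.1 was also found in unmarked cells, at 49.4 and 14 CPM against 513 and 632 CPM (4.59 ± 0.55, adjusted p = 0.00139). The lower members included a ligand and receptor that pair in mammals, ccl20a.3 at 13 and 7.2 CPM against 1.5 and 2.4 CPM (-1.71 ± 0.50, adjusted p = 0.0462) and ccr6b at 7.59 and 7.1 CPM against 2.8 and 0.95 CPM (-1.45 ± 0.36, adjusted p = 0.0274). Counts that moved by more than 1.5 times with 1 control library left out were chemokines and receptors higher (15 without DsRed+ 3, 18 without DsRed+ 1) and chemokines and receptors lower (2 without DsRed- 1, 1 without DsRed- 2, 0 without DsRed+ 3, 5 without DsRed+ 1). With 1 library fewer, the threshold was missed by ccl20a.3 without any 1 of the 4 (adjusted p 0.0907 to 0.21) and ccr6b without DsRed- 1, DsRed- 2 or DsRed+ 3 (0.11 to 0.16).

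**Figure D2:**
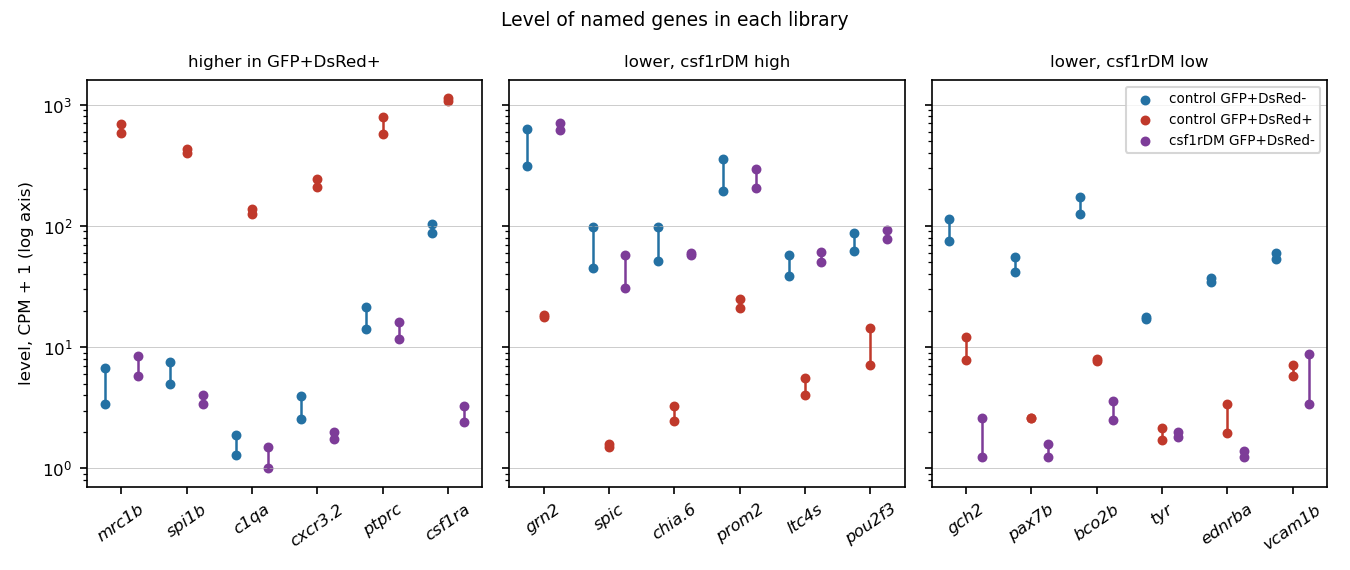
Level in each library, as CPM + 1 on a log axis, of 18 named genes in 3 blocks: genes higher in GFP+DsRed+ cells, genes lower there and high in csf1rDM, and genes lower there and low in csf1rDM, most of them of pigment cells. Points are single libraries and short lines join the replicates of a group. The first block is high in the 2 GFP+DsRed+ libraries, the second in the 4 GFP+DsRed- libraries of either genotype, and the third in the 2 control GFP+DsRed- libraries.

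Markers of tissue macrophages were mostly higher in marked cells, with exceptions. Of 39 members of this list, 23 were higher and 5 lower (median 1.67), against 14.6% and 10.8% of all genes tested. The lower count was thus near the share of all genes. The amino acid transporter gene slc7a7, needed for microglia in zebrafish, was at 19.7 and 8.05 CPM against 612 and 624 CPM (log2 fold change 5.71 ± 0.34 SE, adjusted p = 0.000101), and mfap4, a macrophage reporter gene in zebrafish, at 0.80 and 0.50 CPM against 71.2 and 48.1 CPM (5.32 ± 0.30, adjusted p = 8.92e-05). The nucleotide receptor gene p2rx7, for an ATP-gated channel, stood at 3.1 and 2.05 CPM against 92.7 and 121 CPM (5.1 ± 0.26, adjusted p = 8.55e-05). In each of these genes the groups did not overlap, as in every called gene. By contrast gpr34b, for a lysophospholipid receptor of microglia, fell from 13.5 and 6.9 CPM to 0.70 and 0.95 CPM (-2.4 ± 0.35, adjusted p = 0.00322), with csf1rDM libraries at 10.4 and 7.0 CPM. The apolipoprotein E gene apoeb, abundant in microglia and in epidermis, was at 880.5 and 966 CPM against 479 and 382 CPM (-0.89 ± 0.21, adjusted p = 0.0199). A left-out control library moved these counts by more than 1.5 times: tissue macrophage and microglia markers higher (14 without DsRed+ 1) and tissue macrophage and microglia markers lower (1 without DsRed- 2 or DsRed+ 3). With libraries left out in turn, the test was lost for apoeb without DsRed- 1, DsRed- 2 or DsRed+ 3 (adjusted p 0.0576 to 0.158).

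Engulfment genes rose in part. The phosphatidylserine receptor gene havcr1 was at 1.25 and 0.40 CPM against 93 and 76.6 CPM (log2 fold change 5.74 ± 0.34 SE, adjusted p = 9.93e-05), and stab1, for another receptor of dying cells, at 11.2 and 7.3 CPM against 302 and 290.2 CPM (5.09 ± 0.26, adjusted p = 8.55e-05). The receptor kinase genes axl (3.96) and mertka (3.31) and the cholesterol exporters abca1a (2.76) and abca1b (3.35) also rose. In contrast, dock1, for an exchange factor of the engulfment machinery used by many cell types, fell from 91.7 and 88 CPM to 33.1 and 28 CPM (-1.32 ± 0.16, adjusted p = 0.00161), and its partner elmo1 rose by 1.51 ± 0.39. Of 30 members, 11 were higher and 3 lower, against 14.6% and 10.8% of all genes tested. The lower count was thus near the share of all genes. The list median of 0.35 was well under its leading members. The following counts changed by more than 1.5 times without a library: engulfment receptors and bridges higher (7 without DsRed+ 3). The test was no longer passed by elmo1 without DsRed- 2, DsRed+ 3 or DsRed+ 1 (adjusted p 0.0736 to 0.141).

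Most of the sensing genes that passed the test were on the marked side. Of 43 Toll-like receptor and NF-kB genes, 25 were higher and 1 lower. The nucleic acid sensor genes tlr9 (0.80 and 0.70 CPM against 27.6 and 44.8 CPM, log2 fold change 4.52 ± 0.30), tlr22 (4.49) and tlr8b (3.75) rose most among the receptors. The exception, tlr4al, fell from 17.4 and 12 CPM to 2.1 and 3.45 CPM (log2 fold change -1.88 ± 0.28 SE, adjusted p = 0.00362). Of 43 ITAM adaptor and kinase genes, which relay signals from immune receptors, 25 were higher and 1 lower. The Fc receptor adaptor gene fcer1g went from 8.84 and 7.8 CPM to 385 and 385 CPM (5.58 ± 0.29, adjusted p = 8.55e-05). Of 10 phagocyte NADPH oxidase genes, 4 were higher and the other members did not pass the test. Among them, cybb, for the catalytic subunit of the oxidative burst, and ncf1, for a cytosolic organizer, stood at 71.1 and 37.1 CPM against 419 and 478 CPM for cybb (3.31 ± 0.31, adjusted p = 0.000513) and 216 and 111 CPM against 311 and 484 CPM for ncf1 (1.53 ± 0.32, adjusted p = 0.014). Unmarked cells thus kept 41.2% of the marked level of ncf1 and 12.1% of that of cybb. Single libraries moved some counts by more than 1.5 times, ITAM adaptors and immune receptor kinases higher (16 without DsRed+ 3). Among these genes, the test was lost for ncf1 without DsRed- 2 or DsRed+ 3 (adjusted p 0.0704 to 0.0875).

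Antigen presentation and lysosome genes included the largest differences in mean level among the called named genes. The invariant chain genes cd74a and cd74b, whose product escorts MHC class II, were at 1362 and 1200.0 CPM and 727 and 723 CPM in unmarked cells and at 5261 and 5249.6 CPM and 2476 and 2536 CPM in marked cells, log2 fold changes of 2.25 ± 0.16 and 2.0 ± 0.15. Both genes were thus abundant in each of the 4 libraries. The legumain gene lgmn, for a protease of antigen processing, was at 184 and 129 CPM against 1888 and 1648 CPM (3.72 ± 0.21, adjusted p = 9.09e-05). The saposin precursor gene psap, for activators of lysosomal lipid breakdown, was at 352 and 322 CPM against 1981 and 2094 CPM (2.81 ± 0.14, adjusted p = 8.55e-05), and the cathepsin B gene ctsba at 148 and 127 CPM against 1257 and 1150.2 CPM (3.34 ± 0.20, adjusted p = 0.000101). Of 51 lysosomal enzyme and granulin genes, 33 were higher and 3 lower (median 1.77), and without each control library in turn 30 to 32 were higher. The vacuolar proton pump, which acidifies the lysosome, had 17 of 21 genes higher and 1 lower. That exception was a second copy of a membrane subunit, atp6v0cb, at 6.1 and 5.65 CPM against 0.60 and 1.15 CPM (-1.74 ± 0.28, adjusted p = 0.00481), whereas atp6v0ca was at 216 and 189.7 CPM against 673 and 667 CPM (1.94 ± 0.14, adjusted p = 0.000164). Counts that moved by more than 1.5 times with 1 control library left out were lysosomal enzymes and granulins lower (1 without DsRed- 1, DsRed+ 3 or DsRed+ 1).

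MHC class II chain genes did not move as one. The 15 members whose current symbol begins with mhc2, a family looked up after the values were seen, included 6 that were higher and 5 that were lower in marked cells. The alpha and beta chain genes mhc2daa and mhc2dab were at 766 and 508 CPM and 361 and 193 CPM in unmarked and at 2499 and 3036 CPM and 1303 and 1854 CPM in marked cells (2.36 ± 0.23 and 2.77 ± 0.36). The mhc2dhb gene went from 356 and 382 CPM to 2278 and 2016 CPM (log2 fold change 2.75 ± 0.25 SE, adjusted p = 0.000404). On the other side, mhc2dca was at 45.1 and 24.4 CPM in unmarked, 0.70 and 0.25 CPM in marked and 32.5 and 20.1 CPM in csf1rDM cells (-4.4 ± 0.37, adjusted p = 0.000308). Also lower were mhc2d8.45b1 (20.2 and 11.5 CPM against 1.1 and 0.70 CPM, -2.95 ± 0.36, adjusted p = 0.00157), mhc2dbb (-2.23), mhc2d8.46a (-1.85) and mhc2dcb, the last at 3.65 and 1.85 CPM against 0.20 and 0.10 CPM (adjusted p = 0.0101). The genes of the higher set were the abundant ones, and those of the lower set were at or below 43.6 CPM as a mean of unmarked libraries. The chains are close relatives and differ between haplotypes of zebrafish, and these levels are uncertain to the extent that reads were split between copies, which was not tested. MHC class I and immunoproteasome genes showed small changes, with 8 of 29 higher. A left-out control library moved these counts by more than 1.5 times: MHC class I and immunoproteasome higher (2 without DsRed- 1, 1 without DsRed- 2, 0 without DsRed+ 3, 5 without DsRed+ 1). The adjusted p went above 0.05 for mhc2d8.46a without DsRed- 1, DsRed- 2 or DsRed+ 3 (adjusted p 0.0803 to 0.165) and mhc2dcb without DsRed- 1 or DsRed+ 3 (0.0709 to 0.0791).

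Other paralogs also took opposite directions. Of the granulin genes, whose products are growth factors and lysosomal proteins, grna rose from 145 and 118 CPM to 727 and 789 CPM (log2 fold change 2.74 ± 0.15 SE, adjusted p = 9.09e-05) and grn1 from 34.3 and 18.7 CPM to 209 and 191 CPM (3.14 ± 0.25, adjusted p = 0.000263), while grn2 was at 634 and 311 CPM in unmarked and 17.5 and 16.9 CPM in marked cells (-4.4 ± 0.28, adjusted p = 0.000129). The antisense transcript grnas was lower as well (-1.24); whether strand was used in counting is not given in the sources used here, so that its reads cannot be told apart from those of an overlapping gene. Of the CD11b-like integrin alpha genes, itgam.1, chosen after its values were seen, was at 12.3 and 6.15 CPM against 457 and 596 CPM (5.95 ± 0.28, adjusted p = 8.55e-05) and itgam.2, listed as itgam, at 156 and 78.6 CPM against 17.8 and 30.2 CPM (-2.0 ± 0.33, adjusted p = 0.00574). Of the genes for 5-lipoxygenase, the first enzyme of leukotriene synthesis, alox5b.2 was higher (3.34) and alox5a lower (-1.23). The enzymes after it divided too, with lta4h, for leukotriene B4 synthesis, at 3.1 and 2.3 CPM against 27.4 and 38.8 CPM (3.37 ± 0.28, adjusted p = 0.000293), and ltc4s, for leukotriene C4 synthesis, at 57 and 37.8 CPM against 4.6 and 3.0 CPM (-3.13 ± 0.27, adjusted p = 0.000335). In csf1rDM cells ltc4s was at 59.5 and 49.7 CPM, close to the control unmarked libraries, and lta4h at 2.4 and 1.75 CPM, whereas alox5b.2 was at 16.6 and 53.2 CPM there, against 36.1 and 21.5 CPM in marked and 2.95 and 1.65 CPM in control unmarked libraries. With 1 library fewer, the threshold was missed by grnas without DsRed- 1, DsRed+ 3 or DsRed+ 1 (adjusted p 0.0575 to 0.119) and alox5a without DsRed- 1 or DsRed+ 3 (0.12 to 0.149).

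Cytokine and cytokine receptor genes moved in both directions. Of 67 members, 29 were higher, 11 lower and 27 did not pass the test. Over all genes tested the shares were 14.6% higher and 10.8% lower. The tnfa gene, for tumour necrosis factor, was at 1.25 and 0.40 CPM against 14.4 and 46.5 CPM (log2 fold change 4.08 ± 0.58 SE, adjusted p = 0.00298), and il1b, for interleukin 1 beta, at 24.6 and 9.79 CPM against 156 and 266 CPM (3.83 ± 0.53, adjusted p = 0.00274). In both genes GFP+DsRed+ replicate 3 was the highest library. The receptor gene il10ra, for an inhibitory cytokine, was at 16.5 and 8.15 CPM against 329 and 422 CPM (5.09 ± 0.29, adjusted p = 9.32e-05). Lower members of the list included the receptor genes il17rc (-1.19), il17ra1a (-1.26), lifra (-1.31) and il22ra2, a soluble decoy receptor of interleukin 22, at 45.8 and 27.6 CPM against 1.4 and 2.05 CPM (-3.58 ± 0.30, adjusted p = 0.000304). Interferon response genes had 10 of 35 higher, led by the antiviral GTPase gene mxf, at 2.4 and 0 CPM against 117 and 133 CPM (6.25 ± 0.73, adjusted p = 0.00129). The following counts changed by more than 1.5 times without a library: cytokines and their receptors higher (19 without DsRed- 2 or DsRed+ 3), cytokines and their receptors lower (6 without DsRed- 2, 7 without DsRed+ 3) and interferon response higher (5 without DsRed- 2, 4 without DsRed+ 3).

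Iron and heme genes known together in mouse red pulp macrophages did not move together. The ferroportin gene slc40a1, for the iron exporter, was at 14.1 and 9.69 CPM against 193 and 116 CPM (log2 fold change 3.77 ± 0.31 SE, adjusted p = 0.000308), and the heme oxygenase gene hmox1a at 33.2 and 22.2 CPM against 185 and 175 CPM (2.89 ± 0.20, adjusted p = 0.000164). The adhesion molecule gene vcam1b fell from 52.2 and 59.2 CPM to 6.1 and 4.8 CPM (-2.94 ± 0.43, adjusted p = 0.00329), as spic did, but unlike spic it was low in csf1rDM cells too (2.4 and 7.75 CPM). The transferrin receptor gene tfr1b, for iron uptake, was also lower (-1.01). With libraries left out in turn, the test was lost for tfr1b without DsRed- 1, DsRed+ 3 or DsRed+ 1 (adjusted p 0.0606 to 0.0826).

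Markers of other blood cells were examined because the sort could hold them. Of 35 pan-leukocyte and leukocyte cytoskeleton genes, 22 were higher and 3 lower in marked cells (median 1.9). The T cell coreceptor gene cd8a was at 4.7 and 2.6 CPM against 104 and 74.1 CPM (log2 fold change 4.48 ± 0.30 SE, adjusted p = 0.000138) and cd8b at 0.90 and 0.70 CPM against 41.3 and 16.7 CPM (4.07 ± 0.52, adjusted p = 0.00186). The T cell genes lck and zap70 did not pass the test, at 7.45 and 11.4 CPM and 1.1 and 1.35 CPM in marked and at 9.09 and 6.55 CPM and 1.1 and 1.75 CPM in unmarked libraries. Of 25 T and NK markers, 5 were higher, 3 of them called with log2 fold changes up to 4.93, and 1 was lower (median 0.005). Over all genes tested the shares were 14.6% higher, 4.98% called higher and 10.8% lower. The summed level of the T and NK list was 535 and 478 CPM in unmarked and 508 and 488 CPM in marked libraries. B cell markers had 6 of 13 higher, 5 of them called, led by the lectin gene cd22 (5.1). The cd79a gene was at 1.95 and 0.80 CPM against 0.80 and 1.45 CPM, and pax5, cd79b, rag1 and rag2 were below the rule for members. Granulocyte markers had 8 of 19 higher, led by csf3r and the chemokine receptor gene cxcr1 (4.08), and the neutrophil enzyme genes mpx and lyz were below the rule. Endothelial markers, which kdrl:Cre would also label, had 4 of 25 higher, close to the 14.6% of all genes tested, among them mrc1a (5.24) and stab1, and kdrl itself was at 36 and 18.6 CPM against 19 and 12.1 CPM (-0.53 ± 0.51, adjusted p = 0.498). The part of such cells in the results was not tested. Dendritic and Langerhans cell markers had 8 of 16 higher and 3 lower. Among the higher ones, the activation marker cd83 was at 71.8 and 49.4 CPM against 586 and 744 CPM (3.66 ± 0.20, adjusted p = 8.55e-05). The lower ones included cldnh (-2.91) and il34 (-1.09). This list shares cldnh, epcam and cd4-1 with the metaphocyte markers described below. Single libraries moved some counts by more than 1.5 times, T and NK cell markers higher (3 without DsRed- 2 or DsRed+ 3) and dendritic and Langerhans cell markers higher (5 without DsRed- 1, 4 without DsRed- 2 or DsRed+ 3).

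**Figure D3:**
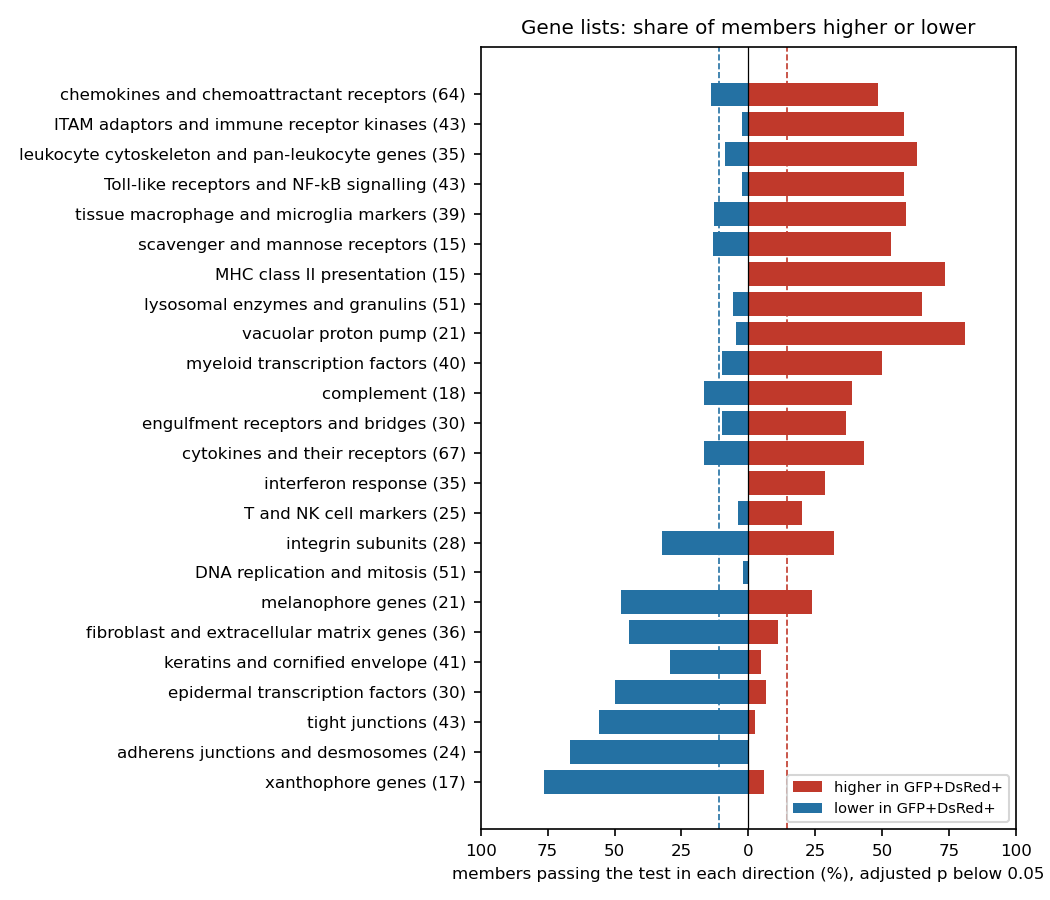
Share of the members of each gene list that were higher (right, red) or lower (left, blue) in GFP+DsRed+ cells at an adjusted p below 0.05, in percent, for 24 lists, with the number of members in brackets. Dashed lines give the shares of all genes tested, 14.6% higher and 10.8% lower. Macrophage lists extend to the right and epithelial, matrix and xanthophore lists to the left.

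Among the genes lower in marked cells, one set was high in the unmarked cells of both genotypes. Of 12 metaphocyte markers, 8 were lower and 1 higher, the last being cd4-1 (5.28), and they summed to 16954 and 20244 CPM in control unmarked, 10283 and 7056 CPM in marked and 19133 and 17739.9 CPM in csf1rDM libraries. This list shares krt4 and krt5 with the keratin list and holds further epithelial junction genes, so its sum is not particular to metaphocytes. The called lower members spic, grn2 and cldnh had means of only 70.9, 472 and 244 CPM in control unmarked libraries. The chitinase gene chia.6, for an enzyme that degrades chitin, was at 96.1 and 50.1 CPM in control unmarked, 2.3 and 1.45 CPM in marked and 58.4 and 56.2 CPM in csf1rDM libraries (log2 fold change -4.45 ± 0.31 SE, adjusted p = 0.000156). The receptor tyrosine phosphatase gene ptprjb.1 was at 55.1 and 31.8 CPM, 0.80 and 0.55 CPM, and 41.4 and 26.3 CPM in this order (-4.52 ± 0.33, adjusted p = 0.000176), and mctp2b, for a membrane protein with calcium binding C2 domains, at 97.1 and 48.4 CPM, 3.3 and 2.0 CPM, and 102 and 64.4 CPM (-4.09 ± 0.37, adjusted p = 0.000441). The same pattern of levels was seen for prom2, a prominin of membrane protrusions in epithelia, at 358 and 193 CPM, 23.7 and 19.99 CPM, and 296 and 203 CPM (-3.32 ± 0.30, adjusted p = 0.000437). It was also seen for nipal4, whose human counterpart is mutated in a scaling skin disease, at 266 and 175 CPM, 16 and 12.8 CPM, and 292 and 160.2 CPM (-3.61 ± 0.32, adjusted p = 0.000382). The claudin gene cldnh was at 296 and 192 CPM, 26.7 and 26.3 CPM, and 297 and 239 CPM (-2.91 ± 0.21, adjusted p = 0.000189). Also called lower, with each csf1rDM library above both marked libraries, were efr3ba (-3.9), ftr66 (-3.62), tp53bp2b (-2.19), dock9b (-2.18) and s100u (-2.06). In these genes GFP+DsRed- replicate 1 was the higher of the control unmarked libraries.

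The same set held regulators from outside the lists. The pou2f3 gene, which in mouse specifies tuft cells, was at 86.6 and 60.7 CPM in control unmarked, 13.3 and 6.15 CPM in marked and 90.7 and 77 CPM in csf1rDM cells (log2 fold change -2.65 ± 0.35 SE, adjusted p = 0.00205). Levels of the guanylate cyclase receptor gene gucy2c were 33 and 12.5 CPM, 1.4 and 1.5 CPM, and 27.8 and 18.6 CPM (-2.96 ± 0.42, adjusted p = 0.00287), and of prox1a, a homeobox factor of lymphatic and other lineages, 114 and 72.7 CPM, 11.1 and 16.3 CPM, and 85.4 and 48 CPM (-2.46 ± 0.33, adjusted p = 0.00234). These 3 genes, and trpm5 and avil, were chosen after their values were seen. The taste and tuft cell channel gene trpm5 did not share this (7.34 and 2.5 CPM against 3.3 and 5.15 CPM, 0.10 ± 0.44, adjusted p = 0.893). The avil gene did not pass the test between the control groups (7.25 and 10.8 CPM against 4.2 and 5.7 CPM, -0.56 ± 0.28, adjusted p = 0.189). In csf1rDM libraries avil was at 23.9 and 24.1 CPM, above both marked libraries.

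Lists of epithelial genes had medians close to one another and far from the extremes above. The median log2 fold change was -0.93 for 41 keratin and cornified envelope genes, -1.04 for 24 adherens junction and desmosome genes, -0.99 for 43 tight junction genes and -1.08 for 30 epidermal transcription factors. Lower at the adjusted p were 12, 16, 24 and 15 of them in that order, and the ones called lower were cldnh and the transcription factor gene gata2a (-2.18). Higher were 2, 0, 1 and 2 in the same order. Called higher were 1 gene of the keratin list and 1 of the transcription factors, whose largest change was 2.97. The desmosomal gene jupa was at 1323 and 1561 CPM against 640.4 and 472 CPM (log2 fold change -1.17 ± 0.25 SE, adjusted p = 0.0141), and the hemidesmosome integrin gene itgb4 at 3883 and 5224 CPM against 2117 and 1600.2 CPM (-1.07 ± 0.26, adjusted p = 0.0222). Among the transcription factors, grhl2b, which maintains epithelial identity, was at 62.6 and 56.1 CPM against 15.1 and 11.7 CPM (-1.86 ± 0.23, adjusted p = 0.00161). The first pair was thus abundant in all 4 libraries, and marked cells kept 38.6% of the unmarked level of jupa, 40.8% of itgb4 and 22.6% of grhl2b. The simple epithelium keratin genes krt8 and krt18b, listed as zgc:77517, went the other way, krt8 from 2039.7 and 1349 CPM to 3754 and 3514 CPM (1.35 ± 0.22, adjusted p = 0.00551) and krt18b from 336 and 212 CPM to 1844 and 1509.6 CPM (2.86 ± 0.23, adjusted p = 0.00029). Counts that moved by more than 1.5 times with 1 control library left out were keratins and cornified envelope lower (2 without DsRed- 2, 1 without DsRed+ 3), adherens junctions and desmosomes lower (5 without DsRed- 2, 6 without DsRed+ 3), tight junctions lower (13 without DsRed- 2, 11 without DsRed+ 3) and epidermal transcription factors lower (9 without DsRed- 1, 7 without DsRed- 2, 5 without DsRed+ 3). The test was no longer passed by jupa without DsRed- 2 or DsRed+ 3 (adjusted p 0.09 to 0.109) and itgb4 without DsRed- 2 or DsRed+ 3 (0.121 to 0.163).

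Medians of lists for other cell types varied. They were -0.41 for endothelial, -0.66 for nerve and Schwann cell, 0.19 for muscle and 0.46 for ionocyte genes. The muscle median changed sign without TMM. Fibroblast and matrix genes had a median of -0.84 with 16 of 36 lower and 4 higher, and epithelial growth factor and Notch receptors a median of -1.05 with 27 of 47 lower and 2 higher. The collagen gene col5a1, which fibroblasts express, was at 995 and 697 CPM against 371 and 346 CPM (log2 fold change -1.0 ± 0.23 SE, adjusted p = 0.0207). Summed over the list, matrix genes stood at 22067 and 18693 CPM in unmarked, 10099 and 9567 CPM in marked and 7152 and 4609 CPM in csf1rDM libraries. Keratin list genes summed to 35149.6 and 42712 CPM in unmarked and 26689 and 19161 CPM in marked libraries, so that the marked libraries also held keratin RNA in quantity. The part of RNA from surrounding skin cells in these levels was not tested. A left-out control library moved these counts by more than 1.5 times: fibroblast and matrix genes lower (2 without DsRed- 1, 1 without DsRed+ 3, 10 without DsRed+ 1), fibroblast and matrix genes higher (2 without DsRed- 2 or DsRed+ 3) and growth factor and Notch receptors lower (16 without DsRed- 1, 11 without DsRed- 2, 9 without DsRed+ 3). Among these genes, the test was lost for col5a1 without DsRed- 1, DsRed+ 3 or DsRed+ 1 (adjusted p 0.0566 to 0.132).

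**Figure D4:**
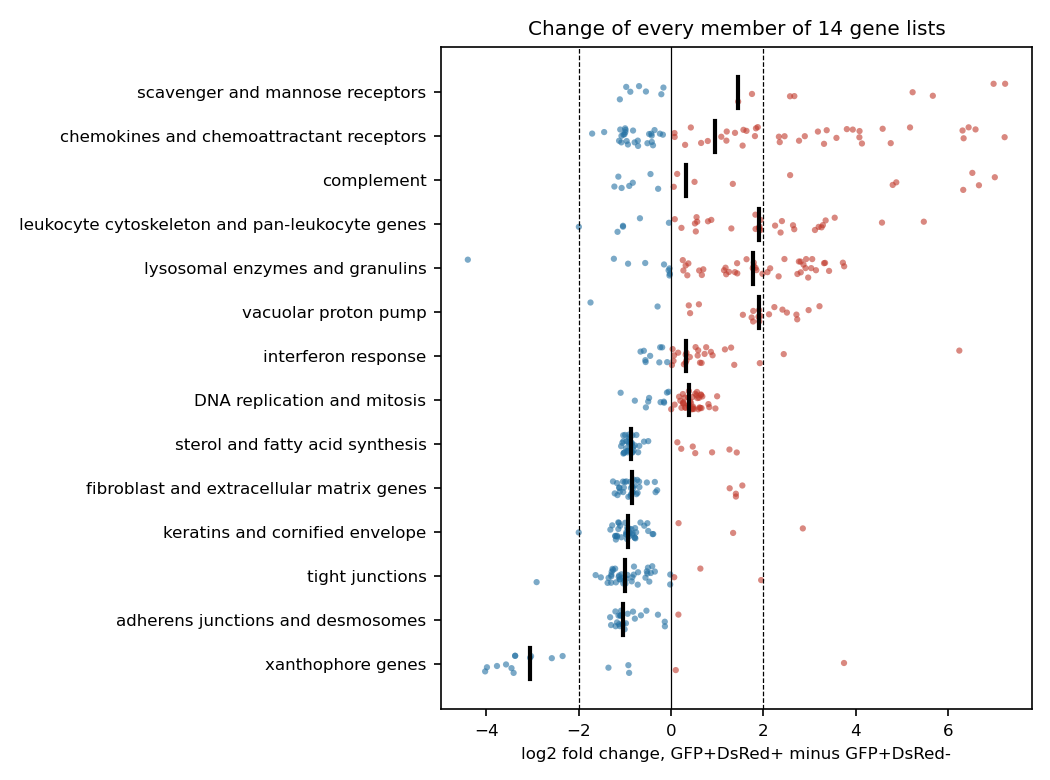
Log2 fold change (GFP+DsRed+ minus GFP+DsRed-) of every member of 14 gene lists, 1 point per gene, with the list median as a black bar. Dashed lines mark changes of 2 in either direction. Keratin, junction and matrix lists gather a little below 0, the xanthophore list lies at a median of -3.05, and the macrophage lists reach up to 7.24 (mrc1b).

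Pigment cell genes made up a second set of the genes called lower. Of all genes tested, 10.8% were lower, 1.04% called lower and 14.6% higher, the shares against which the counts of the pigment lists stand. Of 17 xanthophore genes, 13 were lower and 12 called lower, and the single higher one was csf1ra, which macrophages share. The pteridine synthesis gene gch2 was at 113 and 74.1 CPM in control unmarked, 6.8 and 11 CPM in marked and 1.6 and 0.25 CPM in csf1rDM cells (log2 fold change -3.05 ± 0.41 SE, adjusted p = 0.0023). The lineage factor gene pax7b was at 54.1 and 40.7 CPM, 1.6 and 1.6 CPM, and 0.60 and 0.25 CPM (-4.03 ± 0.27, adjusted p = 0.000138), and bco2b, for an enzyme that cleaves carotenoids, at 124 and 171 CPM, 7.0 and 6.75 CPM, and 2.6 and 1.5 CPM (-4.01 ± 0.28, adjusted p = 0.000164). For these genes both control unmarked libraries were far above the others and the csf1rDM libraries were the lowest. Melanophore genes had 10 of 21 lower and 5 higher. The tyrosinase gene tyr, for the first step of melanin synthesis, was at 16.6 and 16.1 CPM against 0.70 and 1.15 CPM (-3.02 ± 0.26, adjusted p = 0.000349), and the melanosome transport gene mlpha at 53.9 and 45.7 CPM against 3.1 and 3.05 CPM (-3.44 ± 0.49, adjusted p = 0.00294). The higher members included slc3a2a, for an amino acid transporter subunit (16.5 and 8.74 CPM against 317 and 331 CPM, 4.84 ± 0.32, adjusted p = 0.000138), and rab32a, for a regulator of lysosome-related organelles (1.32). Iridophore genes had 8 of 24 lower, with the endothelin receptor gene ednrba at 36.1 and 33.1 CPM against 2.4 and 0.95 CPM (-3.61 ± 0.33, adjusted p = 0.000464), while tfec rose from 2.05 and 0.80 CPM to 80.3 and 89.4 CPM (5.36 ± 0.37, adjusted p = 0.00015). In mammals tfec is a macrophage gene as well. GFP+DsRed- cells were not sorted on a pigment cell marker, and the part of pigment cells in the unmarked libraries was not tested. The following counts changed by more than 1.5 times without a library: melanophore genes lower (5 without DsRed- 1 or DsRed- 2) and iridophore genes lower (1 without DsRed- 1, 2 without DsRed- 2 or DsRed+ 3, 3 without DsRed+ 1).

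Integrin genes moved in both directions. Of 28 integrin subunit genes, 9 were higher and 9 lower, against 14.6% and 10.8% of all genes tested. The leukocyte subunit genes itga4 (8.99 and 5.6 CPM against 140.2 and 90.5 CPM, log2 fold change 4.01 ± 0.47 SE, adjusted p = 0.00131) and itgb7 (4.32) rose, as did itgae.1, for a subunit that binds E-cadherin in mammals (2.25 and 1.25 CPM against 119.7 and 260.2 CPM, 6.21 ± 0.39, adjusted p = 0.000113). Lower were itga8, for a subunit of mesenchymal cells, at 32.1 and 22.5 CPM against 5.2 and 5.0 CPM (-2.0 ± 0.25, adjusted p = 0.00181), and the hemidesmosome subunit genes itgb4 and itga6b (-0.95). Of 37 metalloproteinase and inhibitor genes, 7 were higher, led by mmp25b (2.92), and 4 lower (median -0.06). These counts were near the shares of all genes tested, 14.6% and 10.8%. Of 33 ion channel genes, 9 were higher and 5 lower. The trpv1 gene, for a heat and capsaicin receptor in mammals, was at 32.1 and 27.4 CPM against 282 and 265 CPM (3.37 ± 0.17, adjusted p = 8.55e-05). The calcium-activated channel gene trpm4a was at 13 and 7.8 CPM against 1.4 and 1.85 CPM (-1.92 ± 0.30, adjusted p = 0.00444). Single libraries moved some counts by more than 1.5 times, integrin subunits lower (3 without DsRed- 2 or DsRed+ 3), metalloproteinases and inhibitors lower (0 without DsRed- 1 or DsRed+ 3, 1 without DsRed- 2) and TRP and other ion channels lower (3 without DsRed- 1, 2 without DsRed- 2 or DsRed+ 1, 1 without DsRed+ 3). The adjusted p went above 0.05 for itga6b without DsRed- 2 or DsRed+ 3 (adjusted p 0.0764 to 0.104).

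Lists for growth and metabolism differed in their called genes. Called higher were 3 of 28 glycolysis and 2 of 24 tricarboxylic acid cycle genes, against 4.98% of all genes tested. The replication, immediate early and sterol lists described here held 0 called genes. Of 51 DNA replication and mitosis genes, 0 were higher and 1 lower, the latter being cdc6 (log2 fold change -1.09 ± 0.29 SE, adjusted p = 0.0333), a licensing factor of replication. At an unadjusted p below 0.05 limma gave 3 higher and 2 lower genes of this list, and at an adjusted p below 0.05 edgeR gave 1 and 2 and DESeq2 2 and 2. Glycolysis genes had 12 of 28 higher and 1 lower, with the phosphofructokinase gene pfkpa at 46.7 and 45.9 CPM against 169.6 and 206 CPM (2.2 ± 0.29, adjusted p = 0.00204). Of 24 genes listed for the tricarboxylic acid cycle, 3 were higher, near the 14.6% of all genes tested, and 1 was lower. The higher genes included acod1, which makes itaconate in activated macrophages, at 5.65 and 3.2 CPM against 54.4 and 119 CPM (4.14 ± 0.43, adjusted p = 0.000764). Immediate early and heat shock genes, which can respond to cell dissociation, had 12 of 40 higher and 1 lower. Their summed level was 42338 and 38908 CPM in unmarked and 49799 and 53051 CPM in marked libraries, and their part in the other results was not tested. Sterol and fatty acid synthesis genes had a median of -0.86, with 3 of 39 lower and 3 higher. Counts that moved by more than 1.5 times with 1 control library left out were glycolysis higher (6 without DsRed- 2 or DsRed+ 3), immediate early and heat shock genes higher (6 without DsRed- 2, 5 without DsRed+ 3, 7 without DsRed+ 1), sterol and fatty acid synthesis lower (1 without DsRed- 2 or DsRed+ 3) and sterol and fatty acid synthesis higher (1 without DsRed- 2 or DsRed+ 3). With 1 library fewer, the threshold was missed by cdc6 without any 1 of the 4 (adjusted p 0.0978 to 0.152).

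Some genes of translation lay at the stable end of the comparison after the TMM correction. Of 1206 members with at least 100 CPM in all 4 control libraries, 237 (19.7%) had a 95% interval of the log2 fold change that lay within -0.5 to 0.5. The narrowest intervals included those of the ribosomal protein genes rps19 (-0.42 to 0.21), rpl17 (-0.33 to 0.30) and rpl23 (-0.21 to 0.43), the initiation factor gene eif2s3 (-0.29 to 0.35) and the nuclear transport gene ran (-0.20 to 0.45). The share of translation genes among the 237 was not counted. On CPM of the library total, without TMM, both marked libraries lay below both unmarked ones for rps19, rpl17, rpl23 and eif2s3. The same held for 47.9% of all members, and ran overlapped. Levels of rpl17 were 261 and 239.9 CPM in unmarked and 214 and 212 CPM in marked libraries.

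The replicates of the unmarked group differed in the level of many called genes. Of 698 called higher genes with at least 1 CPM in both GFP+DsRed- libraries, 586 (84%) were higher in replicate 1 than in replicate 2, with a median ratio of 1.42, against 60.6% of all 18289 members with that level. The called lower genes leaned the same way, with 180 of 212 (84.9%) higher in replicate 1. Of the 10 genes that differed most between these replicates, all but RF01848 and RF00012 (each 73.7 and 191 CPM) were higher in replicate 1. They included the leukocyte genes itgb2 (163 and 55.9 CPM), lcp1 (156 and 62.9 CPM), hck (332 and 121 CPM) and elmo1 (115 and 47.9 CPM). Also among them were fn1b for a fibronectin (113 and 41.4 CPM) and serpinh1b for a collagen chaperone (253 and 102 CPM). The others were egr1 for an immediate early factor (1349.6 and 522 CPM) and crfb15 for a cytokine receptor (104 and 41.6 CPM). The summed pan-leukocyte list was 3476 CPM in replicate 1 and 2359 CPM in replicate 2, against 6562 and 7759.6 CPM in marked libraries. In the GFP+DsRed+ group, replicate 3 held more of the MHC class I gene mhc1uba (196 and 653 CPM in replicates 1 and 3), of lacc1, an immune metabolic enzyme (97.6 and 255 CPM), and of prkcq, a protein kinase C of lymphocytes (53.1 and 136 CPM), of which lacc1 (3.98) and prkcq (5.06) were called between the groups and mhc1uba was not (adjusted p = 0.12). Of the 10 genes that differed most between the GFP+DsRed+ replicates, nuggc.3 (103 and 37.7 CPM), fam129aa (150 and 59.1 CPM) and slc26a2 (548 and 220 CPM) were higher in replicate 1. The rest were higher in replicate 3. With 2 libraries a group these spreads cannot be assigned to fish, sort or library preparation.

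**Figure D5:**
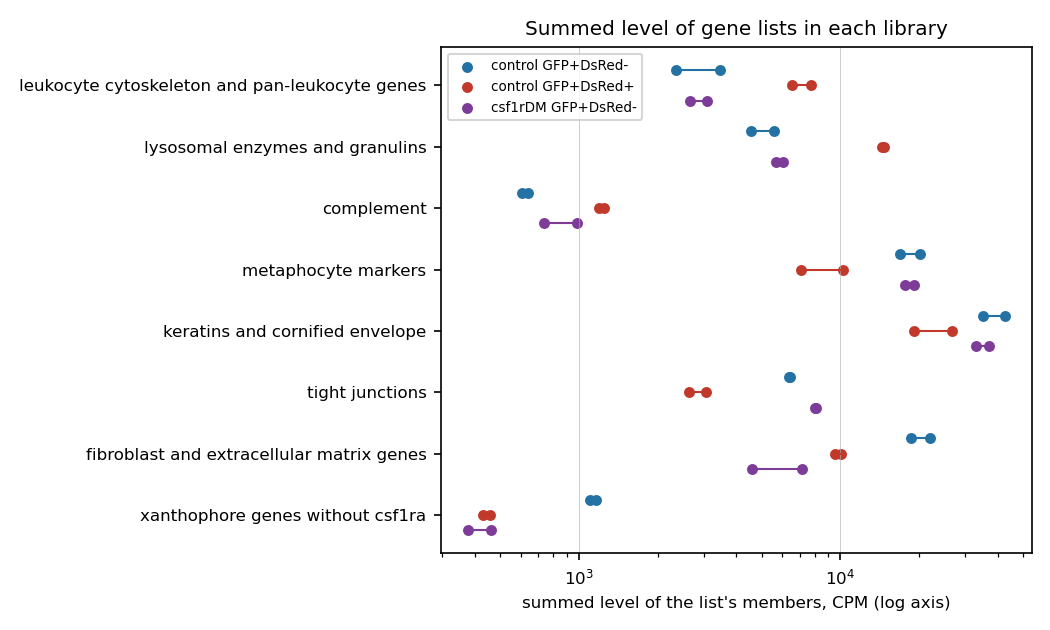
Summed level, in CPM on a log axis, of the members of 8 gene lists in each of the 6 libraries, with 1 point per library and groups by colour. Leukocyte, lysosome and complement lists are highest in the 2 GFP+DsRed+ libraries, metaphocyte, keratin and tight junction lists in the GFP+DsRed- libraries of both genotypes, and matrix genes and xanthophore genes without csf1ra in the 2 control GFP+DsRed- libraries. The metaphocyte list shares krt4 and krt5 with the keratin list.

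What unmarked cells kept of the marked profile varied from gene to gene. Over the 1015 called higher genes, the unmarked level had a median of 10.4% of the marked level (quartiles 3.96% and 17.5%), a range whose upper end the fold threshold sets. It was 7.74% for the reporter gene mpeg1.1, 2.47% for the pan-leukocyte gene ptprc, 0.64% for mrc1b and 0.46% for c1qa. Conversely, over the 212 called lower genes, the marked level had a median of 7.06% of the unmarked level (quartiles 3.83% and 11.3%), with 10.8% for cldnh, 3.64% for grn2 and 0.78% for spic. The paralog mpeg1.2 was at 61.3 and 39.3 CPM against 57.3 and 87.7 CPM and did not pass the test (0.73 ± 0.41, adjusted p = 0.239).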

How the data were processed

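Zebrafish skin cells sorted by fluorescence were profiled by bulk RNA sequencing, and 6 libraries in 3 groups were used, 4 of them in the comparison. Per the submitters' processing notes, STAR 2.5.4b, HTSeq 0.11.0 and edgeR were used with GRCz11, and the gene models are those of Ensembl release 94. The authors deposited one value per gene and library as a scaled signal: each library was normalised to about 20000000. Because counts had been foreseen, the test was changed to fit this unit. In each library a value equals a whole number of reads times one step, rounded up, which held exactly for at least 99.9% of values, so that the depth of the control libraries (10069880 to 14816059 reads) and CPM could be recovered. Molecular identifiers are not given in the sources used here, and 3 reads correspond to 0.20 to 0.30 CPM in the control libraries.

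Genes that reached 1 CPM in 2 or more of the libraries were tested with limma 3.58.1 (lmFit and eBayes with a mean trend, in R 4.3.3) on log2(CPM + 1), with TMM factors from edgeR 4.0.16, in one fit of the 3 groups over all 6 libraries. P-values are two-sided and were adjusted by the Benjamini-Hochberg method over all 20382 genes tested. Named genes were, for each direction, the 15 called genes with the largest change whose higher group averaged at least 20 CPM, the 10 called genes with the largest difference in mean CPM, members of fixed gene lists, the 10 genes of at least 100 CPM in each control library with the narrowest interval within 0.5 of no change, and the 10 genes above 100 CPM that differed most between replicates of each group. Names that denote only a clone were left out. Some genes that the rule selects are not reported here. Genes outside this rule are marked as such where they occur. The members and the lists were chosen with earlier results of these data known.

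The alternatives were other scaling (library totals, or size factors of DESeq2 1.42.0), pseudocounts of 0.25 and 4, other filters, a fit of the 4 control libraries alone, a smaller fold threshold, count tests of edgeR and DESeq2 on the recovered reads, a replicate block, and leaving out each control library. The fit was tested on simulated data with large changes in well expressed genes only. The spread there was set and not taken from these libraries, so that test does not cover genes near the detection floor. Figures were drawn with matplotlib 3.10.9 and tables handled with pandas 2.3.3. Genes with a shared name (4059) were kept apart by identifier, and copies of near-identical genes could share reads.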

Additional observations from a re-analysis of the deposited data

How the results depend on the processing

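The 1015 higher and 212 lower called genes became 2357 and 1620 at a log2 fold threshold of 1. The lower count was 364 with a pseudocount of 0.25, 98 with 4, 484 with edgeR's quasi-likelihood test and 447 with DESeq2, both on recovered reads, which gave 1362 and 1360 higher genes. Leaving out 1 control library at a time gave 804 to 1149 higher and 180 to 310 lower called genes, and 1420 to 2119 higher and 529 to 1560 lower genes at the adjusted p alone. Without TMM the share of higher genes among those called went from 82.7% to 76.2%, genes past the adjusted p from 2982 higher and 2198 lower to 2371 and 3259, 18 of 96 list counts moved by more than 1.5 times and the medians of 3 lists (T and NK cells, muscle, TCA cycle) changed sign. DESeq2 size factors moved none of the 96 counts by that much. Only the number 1 occurs in both groups compared, and the numbers were not taken as pairs. The deviations of its libraries from their group means had r = -0.42 over genes. With 2 libraries a group these deviations mirror each other, so DsRed- 1 and DsRed+ 3 had the same value with a positive sign. This correlation cannot decide which libraries were pairs. With the replicate block in the fit of all 6 libraries, 967 higher and 216 lower genes were called, and 1605 and 640 passed the adjusted p alone. A crossed pairing of the 4 control libraries, chosen after seeing the data, gave 4673 higher and 4437 lower genes at the adjusted p alone. A change of sign was counted as a reversal only where the gene passed the test in the main fit or in the alternative. Sign changes of genes that passed in neither were not counted. Of the 188 genes named or chosen by the rule, 157 passed the test. By this rule, 148 of the 188 kept their side of the threshold without a reversal under all 15 alternatives that gave them a value. None of them reversed, and 26 lost the test when a control library was left out. With 2 libraries a group, genes near 3 reads per library gave levels but no firm fold, and a missed threshold does not show equal levels.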

Other observations

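A block of gene models that carry only a clone name, CR354549, was chosen after its values were seen. All 12 of its members were called lower in GFP+DsRed+ cells, with log2 fold changes between -4.54 and -2.35 and a median of -3.11. Their summed level was 287 and 168 CPM in unmarked control cells, 6.3 and 2.5 CPM in marked cells and 268 and 299 CPM in csf1rDM cells. The block was thus high in the unmarked cells of both genotypes and near the detection floor in marked cells. The block was chosen for this pattern, no model exceeded 2.2 and 0.90 CPM in the marked libraries, and the filter on low values could be passed through the unmarked ones, so that the number of calls is a description and no test. Gene models of one clone lie next to each other and can be close copies that share reads, so they do not count as separate observations, and these models carry no gene name in the tables used.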
